A study of Mus musculus with 12 samples.

Results

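The genes described here are those of the thyroid hormone receptors *Thra* and *Thrb*, the deiodinase *Dio2*, the hormone transporter *Slco1c1*, the hormone-responsive genes *Hr* and *Klf9*, and *Crym*, which encodes a cytosolic hormone-binding protein. All probes of the deposited signal table annotated with 1 of these 7 symbols were taken, which gave 9 of 45281 probes. The set was chosen by the measured difference of *Thra*, whose lower signal in ethanol-exposed mice was already known from these arrays, together with other genes of its pathway, so *Thra* is described without a test. The arrays measured hippocampal RNA of 12 male C57BL/6J mice aged 12 weeks, with 1 MouseWG-6 array per mouse. The 6 mice of the EtOH group were offspring of dams that drank ethanol in early gestation, between 0.5 and 8.5 days after coitus, and the dams of the 6 Control mice were given water. Each of the 2 chips held 3 mice of either group, those numbered 1 to 3 (chip 1) or 4 to 6 (chip 2). The litter of each mouse was not given in the labels, so the p-values measure the spread between these mice, and littermates may be among them.

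Thyroid hormone enters the brain mainly as thyroxine (T4), which transporters carry across the endothelium and into astrocytes. Deiodinase 2 of astrocytes converts T4 to triiodothyronine (T3), the form that binds the nuclear receptors with high affinity. The receptors sit on DNA, mostly beside a retinoid X receptor, recruit corepressors without hormone and exchange them for coactivators when T3 binds. In the developing hippocampus this hormone is known to drive neuronal maturation and myelination, and both too little and too much of it impair learning in rodents.

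Between 18644 and 20268 probes were detected per array (detection p under 0.05), and arrays of chip 1 had median signals of 111.3 to 127.5, above the 94.7 to 102.7 of chip 2. Arrays correlated with each other at 0.984 to 0.993. Signals were background-corrected, quantile normalised and put on the log2 scale, and the 19288 probes detected on at least 6 arrays were compared between the groups with limma. No probe passed an adjusted p of 0.05 (percent called: 0%), while at an unadjusted p of 0.05 3.36% of probes were higher and 3.08% lower in EtOH. With median scaling in place of quantile normalisation the split of these probes moved from 648 higher and 594 lower to 147 higher and 637 lower. In whole tissue, fewer cells of a type and less RNA per cell cannot be told apart. All levels and differences below are log2 values of 1 probe, and levels of different probes were not compared.

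Of the 9 probes, 7 probes of 6 genes were detected on at least 6 arrays and tested. None of the 7 passed the adjusted threshold, against 0% of all probes. At an unadjusted p of 0.05 there was 1 of the 7, the *Thra* probe, lower in EtOH, against 3.08% of all probes; since its difference was known when the genes were chosen, nothing is read from that count. The other 6 tested probes differed between the groups by at most 0.18 in either direction.

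**Figure D1:**
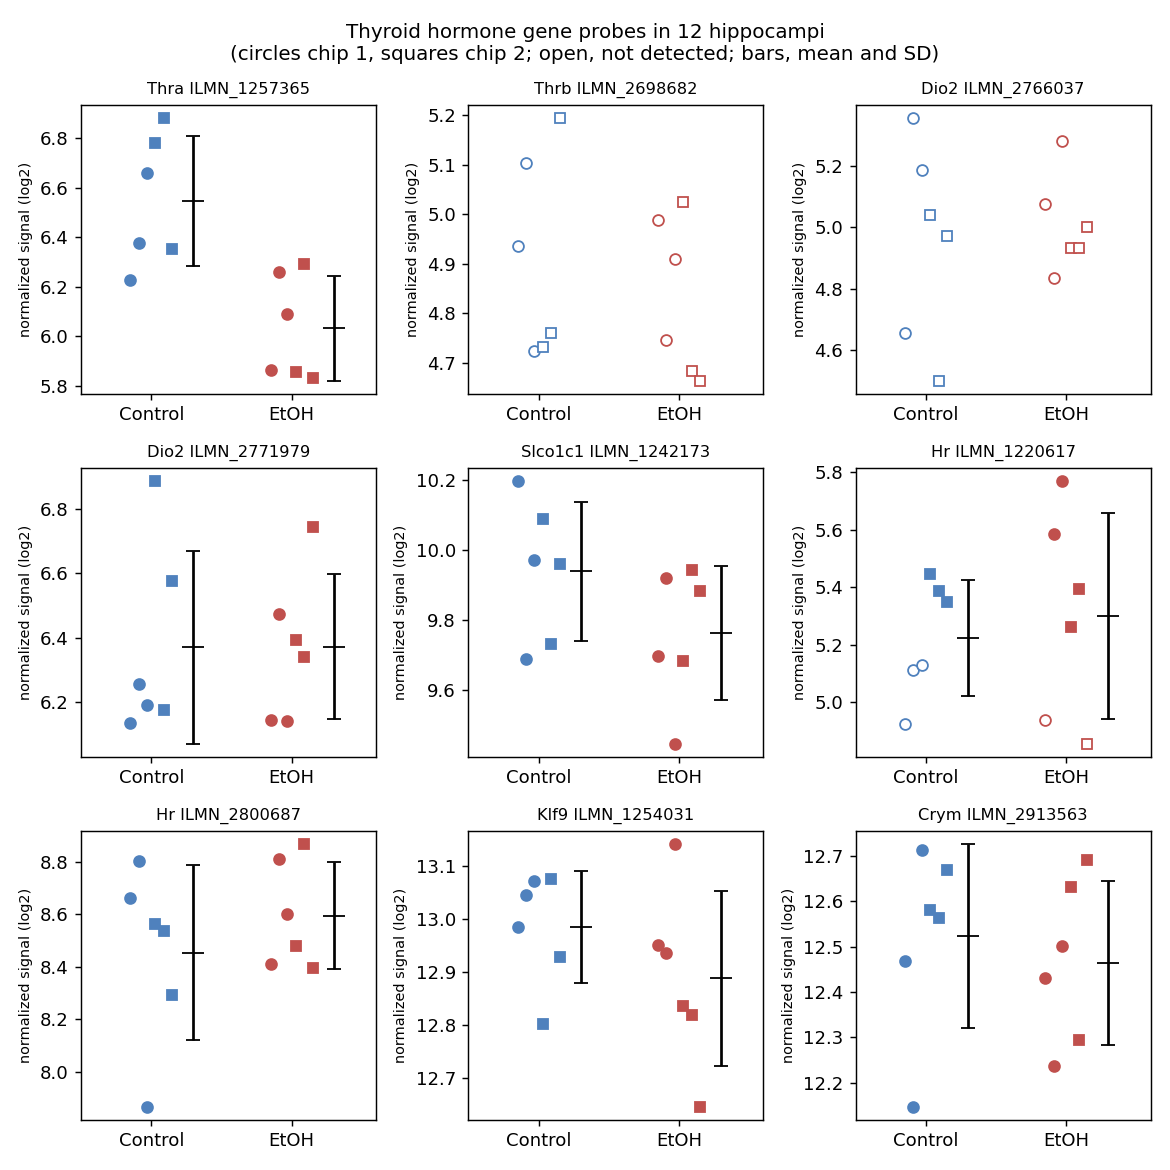
Normalised signal (log2) of each of the 9 probes in each mouse, Control in blue and EtOH in red. Circles are mice on chip 1 and squares mice on chip 2, open symbols are signals not detected, and bars give the mean and SD of a group for probes detected on at least 6 arrays. For *Thra* 5 Control mice lie above all EtOH mice, and for *Slco1c1* 4 do. For each of the other detected probes at most 1 Control mouse does, and the groups overlap.

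*Thra* encodes thyroid hormone receptor alpha, the receptor type that predominates in the brain, and a splice form that does not bind T3. It lies at chr11:98740776-98769006 (GRCm38.p6), with 3 RefSeq transcripts, and its 1 probe (ILMN_1257365, NM_178060) was detected on all 12 arrays. The level in EtOH mice 1 to 6 was 5.86, 6.26, 6.09, 5.85, 6.29 and 5.83. In Control mice 1 to 6 it was 6.23, 6.38, 6.66, 6.78, 6.88 and 6.35. All 6 EtOH mice lay below the Control median and 4 of them below every Control mouse, but EtOH mice 2 and 5 lay above Control mouse 1, so the groups overlapped. The means were 6.03 ± 0.21 in EtOH and 6.55 ± 0.26 in Control (SD, n = 6 each). The difference was -0.52 (standard error 0.13), a signal 0.700 times that of Control.

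The lower *Thra* signal was present on both chips, with a difference of -0.35 among the 6 mice of chip 1 and -0.68 among the 6 of chip 2. The probe is dim: its signal before correction was 120.4 to 159.1 in EtOH and 151.2 to 203.6 in Control, not far above the median probe. The size of the difference therefore moved with the background treatment. It was -0.26 with no background correction, -0.36 with a larger offset and -0.57 with median scaling. Without each mouse in turn it ran from -0.58 to -0.45. Its sign was the same in each of these settings, which all draw on the mice by which *Thra* was chosen, so nothing is read from it. The probe's position within *Thra* and the splice forms it reads were not given in the sources used here.

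**Figure D2:**
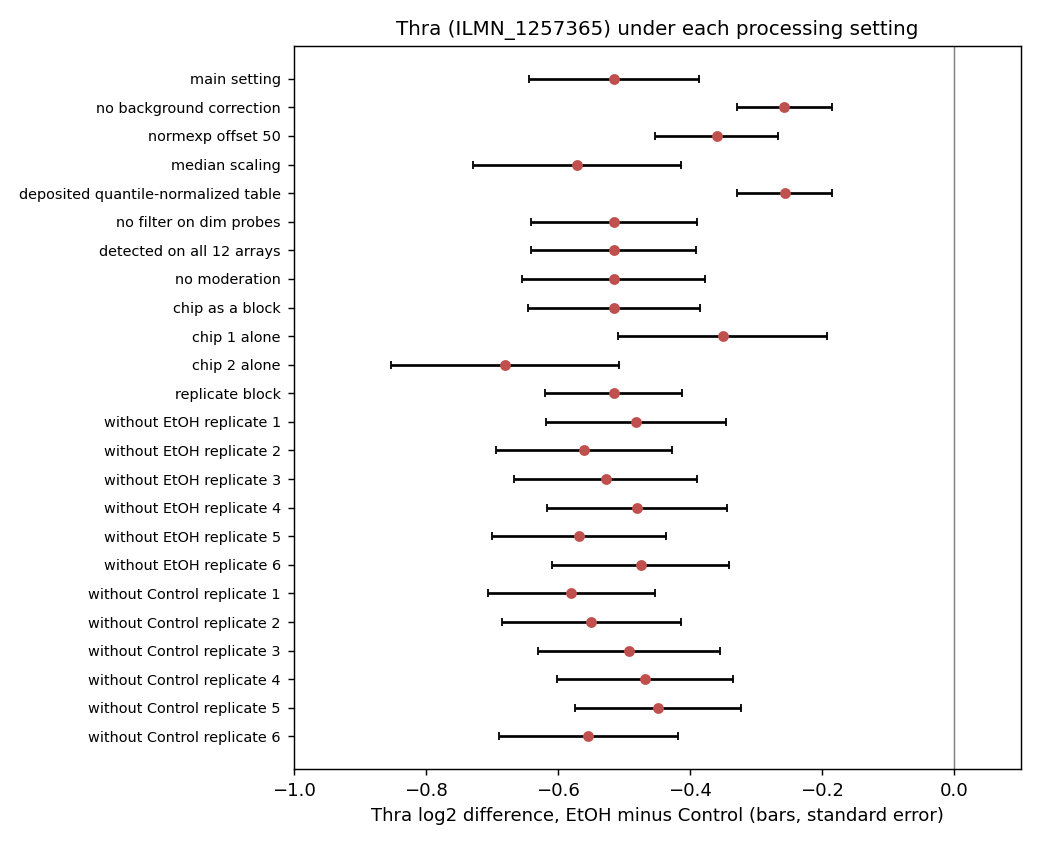
*Thra* difference (log2, EtOH minus Control) in each processing setting and without each mouse in turn, with bars for the standard error. The points run from -0.68 on chip 2 alone to -0.26 in the deposited quantile-normalised table, and none reaches 0.

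The 3′ end of *Thra* overlaps *Nr1d1*, which encodes the circadian repressor REV-ERBα and is transcribed from the opposite strand. The overlap is 1075 bases in the RefSeq annotation, between *Thra* and *Nr1d1* at chr11:98767932-98775377. The *Nr1d1* probe (ILMN_2749669) had a level of 6.53 to 7.34 in EtOH and 6.79 to 7.27 in Control. Its difference was 0.06 (standard error 0.13, limma adjusted p = 0.940), and with median scaling it was -0.0025. Whether the *Thra* probe lies in the overlap was not tested.

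*Thrb* encodes thyroid hormone receptor beta, which in rodents mediates hormone feedback in the pituitary and development of the cochlea and retina. It lies at chr14:17659225-18040097, with 20 RefSeq transcripts. Its 1 probe (ILMN_2698682, NM_009380) was not above background on any of the 12 arrays, with signals of 84.5 to 126.1, so no level and no difference can be given. This concerns 1 probe and does not show that *Thrb* was not transcribed.

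*Dio2* encodes deiodinase 2, the enzyme that makes T3 from T4 in astrocytes and tanycytes, and lies at chr12:90724552-90739038. Transcription of the gene is known to respond to cyclic AMP. RefSeq promoter windows of 300 bases around the start site were at hand for 4 of the 7 genes, in 5 windows, and were searched on both strands for TGACGTCA, the cyclic AMP response element, and for AGGTCA, the core that thyroid hormone receptors bind. The 2 matches are shown with their flanks, in the direction of the gene and with the motif in capitals.
Dio2, chr12:90739115-90739144, minus strand: ctctttctcaaTGACGTCAagatctttagc
Thrb, chr14:17660764-17660793, plus strand: aggagagttgacAGGTCAagggaatagggc
The cyclic AMP element of *Dio2* begins at base -95 from the start site, and it was present in 1.79% of all 32851 windows. The AGGTCA of *Thrb* begins at base -184 from an alternative start site that lies inside the span given for the gene, and that motif, being short, was present in 16.3% of all windows. A match of this kind is a description of the letters and not a binding site.

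*Dio2* had 2 probes, both annotated to NM_010050. ILMN_2766037 was not above background on any array, with signals of 78.7 to 127.0. ILMN_2771979 was detected on all 12 arrays. Its level in EtOH mice 1 to 6 was 6.14, 6.47, 6.14, 6.39, 6.34 and 6.74. In Control mice 1 to 6 it was 6.13, 6.26, 6.19, 6.89, 6.18 and 6.58. The 3 highest mice were Control 4, EtOH 6 and Control 6, all on chip 2, and the groups overlapped throughout. The means were 6.37 ± 0.23 and 6.37 ± 0.30 (SD, n = 6 each), a difference of 0.00 with a 95% interval of -0.30 to 0.30 (limma adjusted p = 0.999, two-sided exact permutation p = 0.985). The interval corresponds to a signal of 0.814 to 1.23 times that of Control. Between the chips the *Dio2* signal was 0.30 higher on chip 2 (standard error 0.12), which did not pass adjustment (limma adjusted p = 0.257), where 0.446% of all probes did.

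*Slco1c1* encodes OATP1C1, a transporter with high affinity for T4 that in rodents is carried by brain endothelium, astrocytes and choroid plexus, and lies at chr6:141524354-141570177. Its probe (ILMN_1242173, NM_021471) was detected on all 12 arrays. The level in EtOH mice 1 to 6 was 9.70, 9.92, 9.45, 9.68, 9.94 and 9.88. In Control mice 1 to 6 it was 10.20, 9.69, 9.97, 10.09, 9.73 and 9.96. All 6 EtOH mice lay below the Control median, 2 lay below every Control mouse, and Control mice 2 and 5 lay within the EtOH range. The means were 9.76 ± 0.19 in EtOH and 9.94 ± 0.20 in Control (SD, n = 6 each). The difference was -0.18 (standard error 0.11, 95% interval -0.41 to 0.06), which did not pass the test (limma adjusted p = 0.774, two-sided exact permutation p = 0.128). Chip 1 gave -0.26 and chip 2 gave -0.09.

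Markers of astrocytes and endothelium, which carry *Slco1c1*, were measured beside it. Those of choroid plexus, the other carrier named, are given below with *Ttr*. All 6 tested, *Ttr* among them, had a negative difference, and their sum differed by -1.53 (two-sided exact permutation p = 0.264). The relation of that sum to *Slco1c1* was not computed. All 12 astrocyte markers were detected on at least 6 arrays and 11 of them had a negative difference, beside a median of 0.0047 over all probes tested. Of the 12, 2 had an unadjusted p under 0.05 in limma, against 3.36% higher and 3.08% lower of all probes. Their summed level (log2) was 15.76 to 15.94 in EtOH and 15.86 to 16.004 in Control (two-sided exact permutation p = 0.0823, n = 6 each). For endothelium 9 of 10 markers were tested, of which 4 had a negative difference and 0 an unadjusted p under 0.05 in limma. The summed levels were 12.89 to 12.99 and 12.81 to 13.09 (exact permutation p = 0.784). Across the 12 mice, with group means removed, the *Slco1c1* level had a Pearson r of 0.43 with the astrocyte sum (rho = 0.39) and of -0.17 with the endothelial sum (rho = -0.22), neither past adjustment (permutation, adjusted p for r = 0.578 and 0.969; for rho = 0.634 and 0.745). These values depended on the normalisation. With median scaling r was 0.78 with the astrocyte sum (rho = 0.83, permutation, adjusted p = 0.0374 and 0.0190). With the endothelial sum it was then 0.66 (rho = 0.62, permutation, adjusted p = 0.138 and 0.169). The part of these markers in the *Slco1c1* signal was not tested.

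*Hr* encodes hairless, a nuclear corepressor that binds thyroid hormone receptors and whose gene is a direct target of T3 in rat brain. It lies at chr14:70554056-70573548 and had 2 probes, both annotated to NM_021877. ILMN_2800687 was detected on all 12 arrays. Its level in EtOH mice 1 to 6 was 8.41, 8.81, 8.60, 8.48, 8.87 and 8.40. In Control mice 1 to 6 it was 8.66, 8.80, 7.87, 8.56, 8.54 and 8.29. Control mouse 3 stood lowest, and the other 11 mice lay between 8.29 and 8.87 with both groups mixed. The difference was 0.14 (standard error 0.14, 95% interval -0.17 to 0.45; limma adjusted p = 0.862, exact permutation p = 0.429), and without Control mouse 3 it was 0.02.

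ILMN_1220617, the dimmer *Hr* probe, was detected on 7 arrays, 4 of EtOH and 3 of Control mice. Its level in EtOH mice was 4.94, 5.59, 5.77, 5.26, 5.39 and 4.86, and in Control mice 4.92, 5.11, 5.13, 5.45, 5.39 and 5.35. EtOH mice held both the highest and the lowest value. The difference was 0.08 (standard error 0.15, limma adjusted p = 0.939, exact permutation p = 0.660). Chip 1 gave 0.38 and chip 2 gave -0.22, and this change of sign did not pass adjustment over all probes (limma interaction, unadjusted p = 0.0482, adjusted p = 0.792). The 2 *Hr* probes followed each other weakly over the 12 arrays (Pearson r = 0.28, given as a description).

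*Klf9* encodes a zinc finger transcription factor that T3 and glucocorticoids induce in rodent neurons and that is involved in the maturation of dentate granule neurons. It lies at chr19:23141226-23168129. Its probe (ILMN_1254031, NM_010638) was bright, with signals of 5961 to 9257. The level in EtOH mice 1 to 6 was 12.95, 12.94, 13.14, 12.84, 12.82 and 12.65. In Control mice 1 to 6 it was 12.99, 13.05, 13.07, 12.80, 13.08 and 12.93. Of the EtOH mice 5 lay below the Control median, while EtOH mouse 3 was the highest of all. The difference was -0.10 (standard error 0.087, 95% interval -0.28 to 0.09), not past the test (limma adjusted p = 0.844, two-sided exact permutation p = 0.251). For *Klf9* the difference of chip 2 from chip 1 was -0.17 (standard error 0.075, limma adjusted p = 0.304).

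*Crym* encodes mu-crystallin, which binds T3 in the cytosol in the presence of NADPH, and lies at chr7:120186380-120201989. Its probe (ILMN_2913563, NM_016669) had signals of 4400 to 7103. The level in EtOH mice 1 to 6 was 12.43, 12.24, 12.50, 12.63, 12.29 and 12.69. In Control mice 1 to 6 it was 12.47, 12.15, 12.71, 12.58, 12.56 and 12.67. The groups covered the same range, with 1 low mouse in Control and 2 in EtOH, and the difference was -0.06 (standard error 0.11, 95% interval -0.29 to 0.17; limma adjusted p = 0.933, exact permutation p = 0.604). Chip 1 gave -0.05 and chip 2 gave -0.07.

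The genes varied among mice of a group to different degrees. The within-group SD (log2) was 0.24 for *Thra*, 0.27 for *Dio2*, 0.19 for *Slco1c1*, 0.28 for the brighter *Hr* probe, 0.14 for *Klf9* and 0.19 for *Crym*. Dim probes vary more on these arrays, so each SD was also ranked among the 1000 probes of nearest level. There the brighter *Hr* probe stood at percentile 94.7, *Crym* at 92.1 and *Slco1c1* at 85.1. *Klf9* stood at 73.9, *Dio2* at 56.1 and *Thra* at 40.2. The dimmer *Hr* probe (SD 0.29) stood at 54.1, so the high rank of *Hr* holds for 1 of its 2 probes.

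Relations between the genes over the 12 mice were computed with the mean of each group removed, in 22 relations including those with cell type sums. None of them was planned in advance, and 4 (*Hr* and *Crym* with dentate granule and CA pyramidal sums) were added after the values of the others had been seen. *Dio2* and *Klf9* ran opposite to each other, with Pearson r = -0.82 (permutation p = 0.0012, adjusted p = 0.0255) and Spearman rho = -0.76 (p = 0.0076, adjusted p = 0.0841). Without the 2 mice farthest from the median of *Dio2*, r was -0.61. It was -0.43 within chip 1 and -0.99 within chip 2. With chip and group means removed r was -0.83 and rho -0.82, and neither passed adjustment over the 22 relations (permutation within chip and group, adjusted p = 0.297 and 0.226).

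*Hr* and *Crym* also ran opposite to each other, with r = -0.79 (permutation p = 0.0081, adjusted p = 0.0893) and rho = -0.85 (p = 0.0022, adjusted p = 0.0488). Without the 2 mice farthest from the median of *Hr*, r was -0.84. It was -0.87 within chip 1 and -0.96 within chip 2. With chip and group means removed r was -0.88 and rho -0.85 (permutation, adjusted p = 0.0955 and 0.226). Under median scaling *Dio2* with *Klf9* had r = -0.23 and rho = -0.17 (permutation, adjusted p = 0.590 and 0.747). There *Hr* with *Crym* had r = -0.12 and rho = -0.06 (permutation, adjusted p = 0.755 and 0.965). Both calls were thus lost with either change. All points share the normalisation of their array. With quantile normalisation the other 20 relations did not pass adjustment for r or for rho. Under median scaling *Dio2* and *Slco1c1* passed with the astrocyte sum. Their r was 0.81 and 0.78 (permutation, adjusted p = 0.0114 and 0.0374) and their rho 0.84 and 0.83 (adjusted p = 0.0190 for both). With quantile normalisation these 2 relations had r = 0.36 and 0.43 (permutation, adjusted p = 0.645 and 0.578). With chip and group means removed from the quantile-normalised values neither passed for r or rho (r = 0.36 and 0.38, adjusted p for r = 0.796 and 0.629). Chip means were not removed from the median-scaled values. With quantile normalisation *Thra* had an r of at most 0.16 in size with each other gene. With median scaling its r ran from 0.31 with *Crym* to 0.46 with *Klf9*, none past adjustment (permutation, adjusted p = 0.309 to 0.507). Within groups of 6 mice, with quantile normalisation, the r of *Thra* with *Hr* was 0.98 in EtOH and -0.25 in Control. Its r with *Crym* was -0.86 and 0.38. These are the largest contrasts between groups among the 22 relations, so they are high by selection. Since *Hr* and *Crym* ran opposite to each other, they are not separate observations. They are given as a description, and the differences between groups were not tested.

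**Figure D3:**
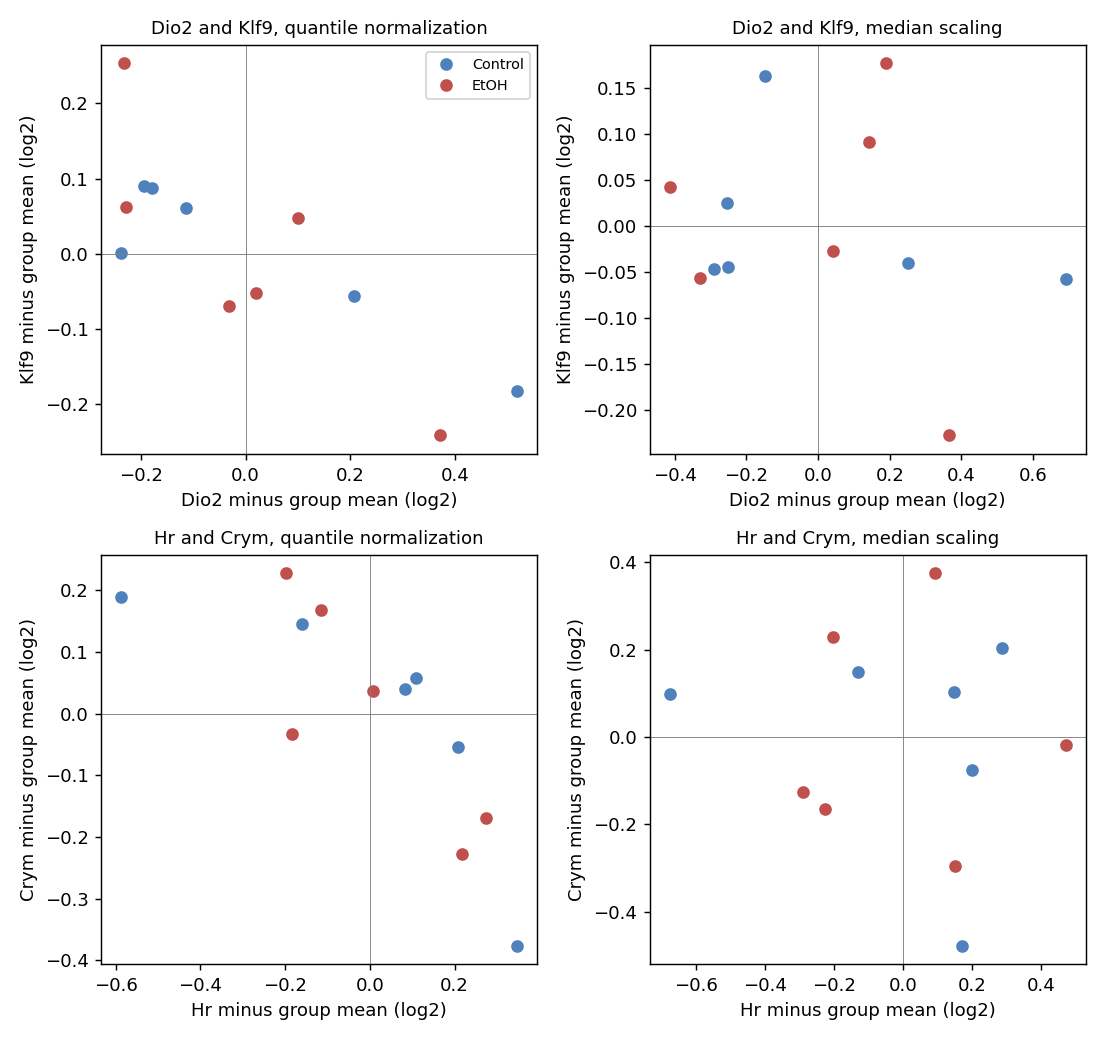
Level of *Klf9* against *Dio2* and of *Crym* against *Hr* (log2, minus the mean of the mouse's group), 1 point per mouse, after quantile normalisation (left) and median scaling (right). The falling lines of points on the left, r = -0.82 and -0.79, are not seen on the right, r = -0.23 and -0.12.

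For each gene the 3 genes with the most similar pattern over the 12 mice were looked up among 10834 others, by Pearson r with group means removed and as a description only. They were *Mier3*, *Asxl1* and *Trim23* for *Thra*, with r of 0.83, 0.83 and 0.82. *Fam181b*, *Tesk1* and *Stmn1* were nearest to *Dio2* (0.92, 0.92 and 0.89), and *Agtrap*, *Tle5* and *Gemin2* to *Slco1c1* (0.94, 0.89 and 0.87). *Rph3a*, *Hs6st1* and *Lct* were nearest to *Hr* (0.95, 0.94 and 0.94). *Lct* is also on the list of dentate granule markers, whose summed level had an r of 0.37 and a rho of 0.42 with *Hr* (permutation, adjusted p = 0.645 and 0.602). *Mcu*, *Eftud2* and *Coq10b* were nearest to *Klf9* (0.97, 0.94 and 0.93), and *Crtac1*, *Tuba8* and *Bud31* to *Crym* (0.91, 0.90 and 0.89). None of these 18 genes is on the wider list of thyroid hormone genes, and the best of 10834 values is high by selection.

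The wider list held 56 genes of thyroid hormone action, of which 49 had a probe with their name and 38 were tested, 1 probe per gene. The remaining genes of the list were not analysed here, or, for 11 of them, *Dio1* and *Rxra* included, did not reach detection on 6 arrays. None of the 38 genes was higher and none lower in EtOH at an unadjusted p of 0.05 in limma, against 3.36% and 3.08% of all probes, and none passed adjustment (adjusted p of 0.759 to 1.00). The difference was positive for 25 genes and negative for 13, with a median of 0.05 beside 0.0047 over all probes tested. With median scaling the median over all probes moved to -0.041, and counts by sign were not taken in that setting.

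**Figure D4:**
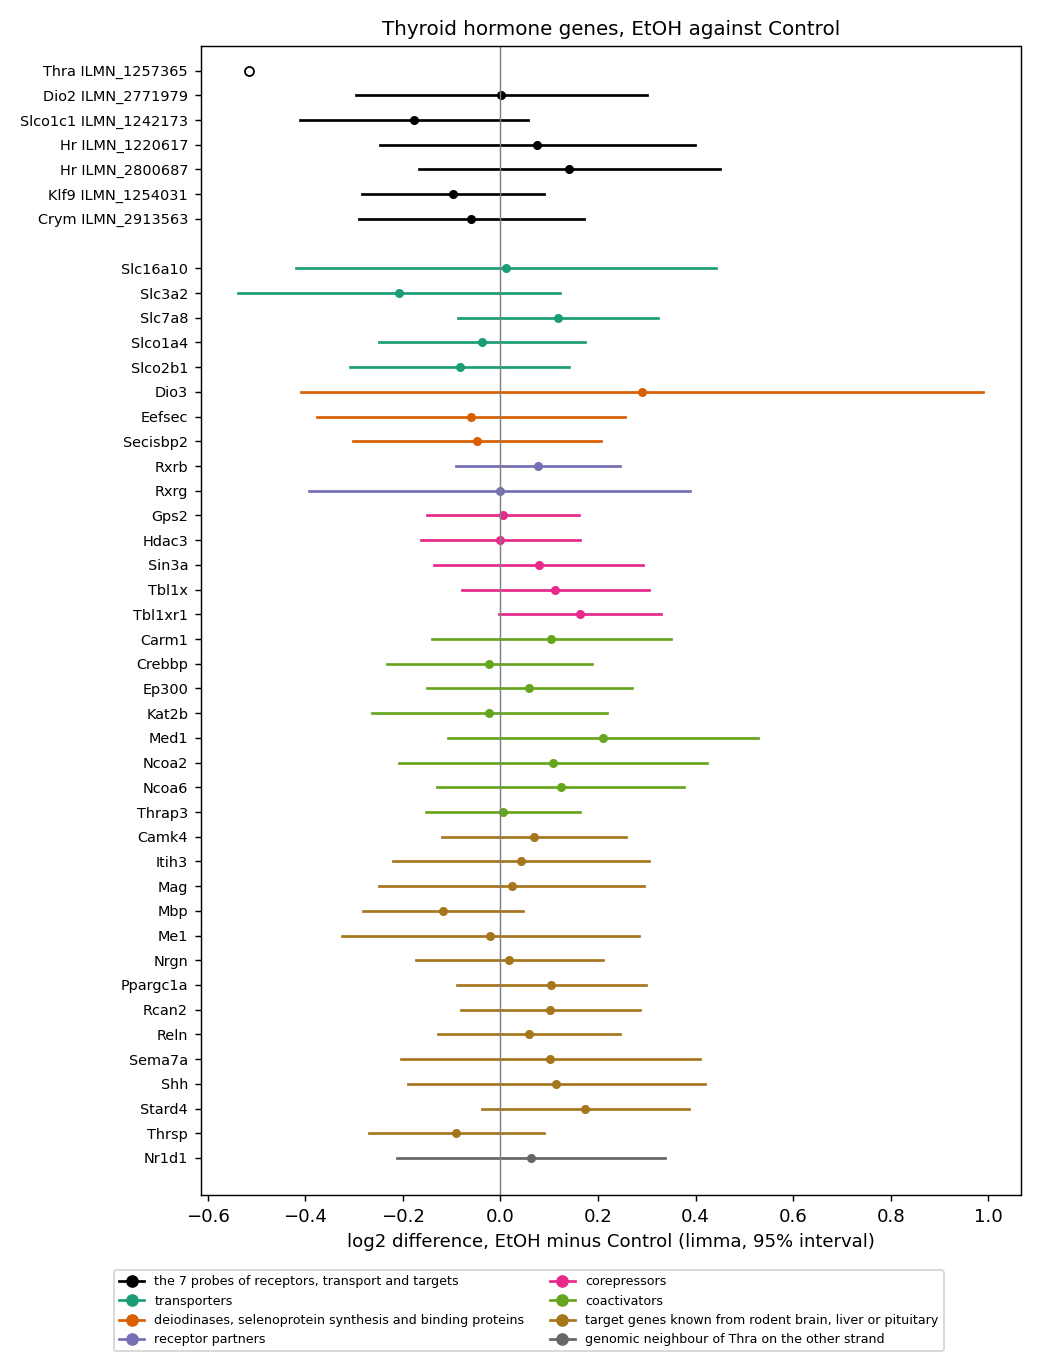
Difference (log2, EtOH minus Control) of the 7 tested probes at the top and of 37 genes of the wider list below, coloured by role, with limma 95% intervals. *Thra* is an open circle with no interval because its difference was known when it was chosen, and *Ttr*, at -1.90, lies off the scale and is left out. All intervals drawn reach 0.

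Of the 5 transporters tested, *Slc3a2*, the heavy chain of the amino acid transporters that also carry T3, differed by -0.21 (standard error 0.15) and *Slc7a8*, 1 of their light chains, by 0.12 (0.095). Of the 4 genes of deiodination and hormone binding, *Dio3*, the deiodinase that inactivates T3, differed by 0.29 (standard error 0.33). Chip 1 gave 0.62 and chip 2 gave -0.04, and the difference was 0.07 without Control mouse 2 and 0.46 without EtOH mouse 5. *Ttr* encodes transthyretin, the T4 carrier that the choroid plexus secretes. Its level was 11.39, 7.82, 10.93, 7.19, 14.62 and 9.70 in EtOH mice and 15.19, 10.21, 15.09, 13.09, 8.53 and 10.94 in Control mice. Mice of both groups thus ranged over 6 log2 units or more. The difference was -1.90 (standard error 1.31, limma adjusted p = 0.800), -3.45 on chip 1 and -0.35 on chip 2.

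*Ttr* is 1 of the choroid plexus markers, and their sum, taken on the linear scale, largely repeats it where it is high. In Control mouse 1 the sum was 15.47 and *Ttr* 15.19. A sum without *Ttr* was not computed. Of the 10 markers all 6 tested, *Ttr* among them, had a negative difference. Their summed level was 9.07 to 14.74 in EtOH and 9.57 to 15.47 in Control (difference -1.53, two-sided exact permutation p = 0.264, n = 6 each). *Folr1*, *Kcne2*, *Slc4a5* and *Otx2* were not detected on 6 arrays. How much of the *Ttr* signal came from choroid plexus in the dissected tissue was not tested.

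Among the receptor partners, *Rxrb* differed by 0.08 (standard error 0.079) and *Rxrg* by -0.00 (0.18). Among the 5 corepressor genes tested, *Tbl1x* and *Tbl1xr1*, subunits of the nuclear receptor corepressor complex, differed by 0.11 (0.090) and 0.16 (0.077). *Tbl1xr1* had the smallest p of the list (limma unadjusted p = 0.0529, adjusted p = 0.759, two-sided exact permutation p = 0.0238 before any adjustment) and was above the Control median in 5 of 6 EtOH mice. Chip 1 gave 0.32 and chip 2 gave 0.01. Of the 8 coactivator genes, *Med1*, the Mediator subunit that contacts liganded receptors, differed by 0.21 (0.15) and *Ncoa6* by 0.12 (0.12).

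Of the 13 target genes tested, 10 had a positive difference and 3 a negative one. Their median was 0.06, beside 0.0047 over all probes tested, and nothing is read from the count. *Stard4*, which encodes a cholesterol transfer protein, differed by 0.17 (standard error 0.099). *Mbp*, which encodes myelin basic protein, a known T3-responsive gene of developing rodent brain, differed by -0.12 (0.076, limma adjusted p = 0.790) with all 6 EtOH mice below the Control median. Another *Mbp* probe (ILMN_3081854) differed by -0.31 (0.12, limma unadjusted p = 0.0215, adjusted p = 0.720). It is given because it was the only 1 of the 58 tested probes of the wider list with an unadjusted p under 0.05. Of all probes 3.36% were higher and 3.08% lower at that threshold. The 7 oligodendrocyte markers tested of 8, *Mbp* among them, were divided, 4 negative and 3 positive, with summed levels of 15.62 to 15.80 in EtOH and 15.60 to 15.999 in Control (exact permutation p = 0.305).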

How the data were processed

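Total RNA of 12 hippocampi was amplified and hybridised by the authors to MouseWG-6 BeadChips and summarised in GenomeStudio 1.9.0. The deposited intensity of each probe is on a linear scale, before normalisation and background subtraction, and the deposited detection p-value states whether it exceeds the negative controls. A second deposited intensity table, quantile normalised by the authors, lay within 0.947% of quantile normalisation of the first and served as an alternative.

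Intensities were corrected in limma 3.58.1 (R 4.3.3) with normexp, the negative controls inferred from the detection p-values and the offset 16, then quantile normalised and put on the log2 scale. A probe was tested if 6 or more of the 12 arrays gave it a detection p below 0.05. The fit held group alone, with empirical Bayes moderation and Benjamini-Hochberg adjustment over all 19288 probes tested. Of 45281 probes, 34885 carried 1 symbol, 18 several and 10378 none, and 34807 probes were found in RefSeq. Coordinates and promoter windows are RefSeq's on GRCm38.p6.

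For single probes the means were also compared by exact permutation, two-sided, enumerating every division of the mice into groups of 6 (smallest p = 0.00216). Correlations used 100000 permutations within groups, adjusted over 22 relations. The limma fit was tested on simulated log2 values and the exact permutation on a constructed example. Background correction, normalisation, marker sums and correlations were not tested in this way. The number of arrays limits the precision.

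The genes, the wider list, the markers and the tests were chosen with earlier results of these data known. Named are all probes of the 7 genes, the wider-list genes with an unadjusted p under 0.05 and the 2 of largest difference in each role, and the 3 genes most like each of the 7. Further names are listed where a count would otherwise stand without them. Alternatives were the background treatment, offset, scaling, filter, moderation, chip, replicate block and leaving out each mouse.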

Additional observations from a re-analysis of the deposited data

Results flagged for a closer look

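*Med1* (ILMN_1220563) in EtOH mouse 4 had a level of 8.41, apart from the other 5 EtOH mice. It was 1 value flagged in 40 groups of 6 tested for a sample far from the rest, a test that flags about 1 group in 20 by chance.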

How the results depend on the processing

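Over all probes, 0 passed adjustment in limma under each setting run, beside 1242 at an unadjusted p under 0.05 with the settings of the report. The count of the 7 probes at an unadjusted p under 0.05 was 1 (*Thra*) except on chip 1 alone, where it was 0; *Thra* was chosen by this difference, so the count supports nothing. For the wider list the count was 0, but 1 (*Tbl1xr1*) with no background correction, with the offset 50, in the deposited table, with no filter, with detection on all 12 arrays and with no moderation. It was 1 (*Mbp*) over all probes of a gene, 3 on chip 1 alone (*Tbl1xr1*, *Ttr* and *Ppargc1a*) and 2 on chip 2 alone (*Crebbp* and *Stard4*). Without 1 mouse in turn it was 0 to 1: *Stard4* without EtOH 3, *Ttr* without EtOH 5, and *Tbl1xr1* without EtOH 6, Control 5 or Control 6.

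Signs changed in 5 probes. *Dio2* (0.0021) became -0.0017 with no background correction, -0.00074 with the offset 50, -0.060 with median scaling, -0.0022 in the deposited table and -0.055 on chip 2, and ran from -0.072 to 0.106 without 1 mouse. *Hr* ILMN_1220617 was -0.22 on chip 2 and -0.018 to 0.165 without 1 mouse. *Dio3*, at 0.29 over all mice, was -0.038 on chip 2. *Rxrg* was 0.22 on chip 2 and -0.133 to 0.144 without 1 mouse. *Nr1d1* was -0.0025 with median scaling and -0.0040 to 0.158 without 1 mouse. With median scaling r was -0.23 for *Dio2* with *Klf9* and -0.12 for *Hr* with *Crym*, and neither r nor rho passed adjustment, nor with chip and group means removed. *Dio2* and *Slco1c1* with the astrocyte sum passed for r and rho with median scaling (r = 0.81 and 0.78), but not with quantile normalisation. These alternatives were chosen after seeing the data. Where no cause is stated, the cause was not tested.

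Same-numbered mice correlated at -0.018 to 0.21, and 5 of 12 arrays correlated best with their own number. With chip means removed the correlations were -0.022 (number 4) to 0.18 (number 6). Whether replicate numbers pair the mice was not tested, since the matches arising by chance were not computed. With the replicate block, 0 probes passed adjustment, 701 were higher and 686 lower at an unadjusted p under 0.05, and *Thra* differed by -0.52. Signals near background, as for *Thra*, *Dio2* and the dim *Hr* probe, limit how exactly a fold is known.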
